A study of Mus musculus with 12 samples.

Results

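The genes described here are 7 matrix metalloproteinases (Mmp2, Mmp3, Mmp9, Mmp11, Mmp13, Mmp14 and Mmp15) and 3 of their tissue inhibitors (Timp1, Timp2 and Timp3). They were taken by symbol from a count table of 25861 genes, each symbol matched 1 gene, and all 10 passed the filter on low counts that left 17025 genes to test. The libraries came from tumour organoids of MMTV-Neu mice, a transgenic line whose MMTV promoter drives the oncogene Neu (ErbB2) in the mammary epithelium. All 3 groups were infected with lentivirus (multiplicity of infection 20), went through 3 days of puromycin (3 µg/ml), and then spent 5 days in collagen I with 2.5 nM FGF2 in the medium. The control group carried a non-targeting hairpin (genotype WT in the labels), and the other groups, sh1Cldn7 and sh2Cldn7, carried 1 of 2 hairpins against Cldn7, called hairpin 1 and hairpin 2 here. Cldn7 encodes claudin 7, a tight junction and basolateral membrane protein of epithelia. Each of the 3 groups had 4 libraries, numbered 1 to 4. The labels give no age of the mice and do not say whether the replicates came from separate animals or cultures, so a p-value here reflects only how these libraries vary, and that variation may be technical.

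Matrix metalloproteinases are zinc-dependent endopeptidases that are made as inactive proenzymes and cut collagens, basement membrane and other extracellular proteins. TIMPs bind the active site of the mature enzymes and block it. Mmp14, anchored in the cell membrane, activates the proenzyme of Mmp2 on the cell surface in a complex that needs Timp2 at a moderate level, so Timp2 is both an inhibitor and a partner in activation. In mammary tumours these enzymes are known from the invasion of collagen, and much of their RNA in whole tumours comes from stromal cells.

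The promoters of Mmp3, Mmp13 and Timp1 are shown because the levels of these genes lay over 10-fold apart between replicate numbers, and because Mmp3 and Mmp13 hold motifs found in no other promoter of the set. RefSeq promoter sequences (GRCm38.p6) were matched for 8 of the 10 genes, and none was matched for Mmp2 and Mmp9. Each line gives the 150 bases just before the annotated start, 5′ to 3′ on the gene's strand, and capitals mark matches to AP-1, PEA3 and the TATA box, while SP1 matches stay in lower case. The AP-1 motif was searched as TGAGTCA on both strands. The ETS-family motif PEA3 was searched as AGGAAG on both strands as well. The TATA box was searched as TATAAA, likewise on both strands, and no motif overlaps another in these stretches.
Mmp13, chr9:7272364-7272513, plus strand: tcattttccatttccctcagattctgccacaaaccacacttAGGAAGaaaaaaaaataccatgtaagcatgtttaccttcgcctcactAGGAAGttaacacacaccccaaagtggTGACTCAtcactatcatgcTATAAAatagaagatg
Mmp3, chr9:7445672-7445821, plus strand: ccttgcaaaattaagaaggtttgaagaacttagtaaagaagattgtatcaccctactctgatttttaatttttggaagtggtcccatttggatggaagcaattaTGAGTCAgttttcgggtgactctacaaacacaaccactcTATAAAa
Timp1, chrX:20870016-20870165, plus strand: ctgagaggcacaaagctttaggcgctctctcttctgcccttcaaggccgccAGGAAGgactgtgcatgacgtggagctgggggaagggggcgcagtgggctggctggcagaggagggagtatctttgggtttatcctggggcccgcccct

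Both strands of the 250 bases before the start were searched. The start is that of the promoter entry, which can differ from the gene interval given below. The windows searched for Mmp11 (10:75932503-75932752) and Timp2 (11:118355412-118355661) lie inside those intervals, and the windows of Mmp15 and Timp3 run into theirs. Mmp13 held an AP-1 match on the minus strand at -35 to -29, PEA3 matches starting at -109 and -62, and a TATA box match at -16 to -11. Mmp3 held AP-1 at -46 to -40, PEA3 at -183, outside the printed stretch, and a TATA box match at -7 to -2. Timp1 held PEA3 at -175 and -99 and the SP1 motif GGGCGG, on the minus strand, at -8. Among all 32851 promoter windows of that length, AP-1 was present in 4.46%, PEA3 in 29.5%, TATAAA in 12.4% and SP1 in 32.7%. Among the 8 promoters, AP-1 and TATAAA were found in Mmp3 and Mmp13, and SP1 was found in the other 6, which are Mmp11, Mmp14, Mmp15, Timp1, Timp2 and Timp3. These matches describe letters in the window and not binding.

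The genes are protein coding in GENCODE M21 (GRCm38, the assembly also called mm10). Mmp3 (9:7445822-7455975) and Mmp13 (9:7272514-7283331) lie in the same cluster on chromosome 9, both on the plus strand. Mmp2 (8:92827291-92853420) and Mmp15 (8:95352268-95375080) lie on chromosome 8, Mmp9 at 2:164940780-164955850, Mmp14 at 14:54431612-54445364 and Timp1 at X:20870166-20874735. Timp3 (10:86300372-86349506) shares 1733 of its exon bases, 21.28%, with Syn3 on the opposite strand. Mmp11 (10:75923222-75936496) shares 155, or 5.58%, with Chchd10, also on the opposite strand. The kit does not mark strand and the counting is not described in the sources used here, so reads in these stretches cannot be told apart. Cep295nl overlaps the interval of Timp2 (11:118301069-118355740) on the same strand, but no exon base of Timp2 is shared with an exon of another gene.

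Total counts were 34988358 to 44645514 in the libraries numbered 1 and 2 and 68581024 to 76329473 in those numbered 3 and 4, so the low levels are measured more finely in the second pair of numbers. Cldn7 stood at 144, 136, 186 and 101 CPM in control replicates 1 to 4, at 31.1, 30.0, 44.2 and 29.0 with hairpin 1, and at 27.4, 25.4, 34.7 and 26.1 with hairpin 2, where CPM are read counts per 1000000 of the TMM-scaled library total. No library with a hairpin reached the lowest control, and Cldn7 fell by 2.18 on the log2 scale over both hairpins (SE 0.07, edgeR quasi-likelihood test, adjusted p = 1.63e-07). Libraries with the same replicate number deviated from their group means together, with correlations across genes of 0.855 to 0.916. The groups were therefore compared within replicate numbers, with the number as a term in the model. The labels name primary epithelial cells, and epithelial markers summed to 7461 to 10489 CPM in all 12 libraries. A large part of that sum was Erbb2, the oncogene of this line. Its means were 4587, 4181 and 4327 CPM in control, with hairpin 1 and with hairpin 2. The median of the 10 epithelial markers was 323 to 506 CPM. Fibroblast markers summed to 869 to 14772 CPM and were far lower in the libraries numbered 3 than in those numbered 4. In bulk libraries, more cells of a type and more RNA per cell cannot be told apart.

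No member passed the test over both hairpins or with hairpin 1, and Timp2 alone rose with hairpin 2. The share of all 17025 genes called was 1.79% over both hairpins, 0.728% with hairpin 1 and 5.76% with hairpin 2, so 1 of 10 called with hairpin 2 is near the background. At an unadjusted p under 0.05, 3 members were higher over both hairpins, 1 with hairpin 1 and 5 with hairpin 2, beside 8.31%, 6.18% and 11.4% of all genes, and none was lower. DESeq2 with the replicate number called 2 members over both hairpins (Mmp14 and Timp2), 0 with hairpin 1 and 3 with hairpin 2 (Mmp2, Mmp14 and Timp2), beside 7.72%, 4% and 12% of the genes it adjusted. Without the replicate number in the model, edgeR called no member in any comparison and 0.00587% of all genes, which is 1 gene, in each. The median log2 difference of the 10 genes was 0.33 over both hairpins, 0.19 with hairpin 1 and 0.36 with hairpin 2, and the median of all genes was within 0.01 of 0 in each.

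**Figure D1:**
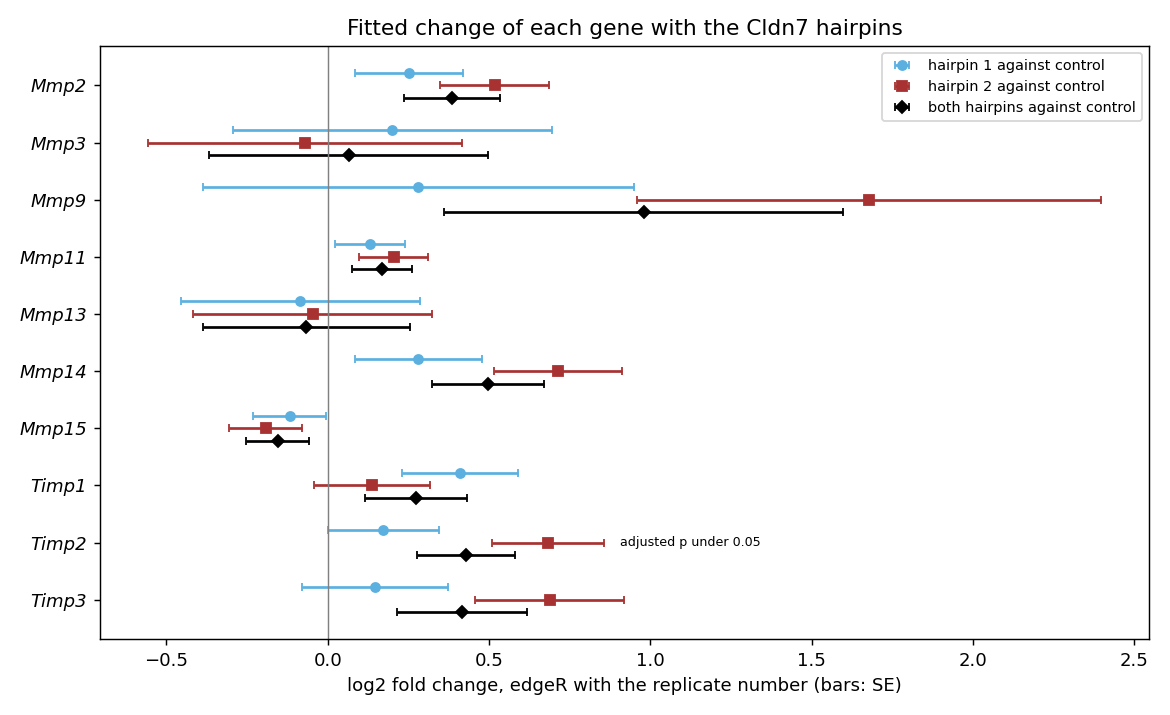
Log2 fold changes of each metalloproteinase and TIMP with hairpin 1, with hairpin 2 and over both hairpins against control, from the edgeR model with the replicate number; points are estimates and bars are 1 standard error. Mmp14, Timp2 and Timp3 lie further to the right with hairpin 2 (0.68 to 0.71) than with hairpin 1 (0.15 to 0.28), and Mmp9 has the widest bars (0.62 to 0.72).

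Levels were compared between genes per kilobase of exon. In the control group Timp2 was at 74.5 ± 52.2 CPM per kb and Mmp2 at 69.8 ± 66.6 (SD, n = 4). Timp1 followed at 56.3 ± 46.6, Mmp15 at 42.6 ± 20.9, Timp3 at 36.1 ± 14.6 and Mmp14 at 32.8 ± 20.7. Mmp13 stood at 29.6 ± 31.5, Mmp3 at 19.8 ± 20.0, Mmp11 at 3.79 ± 1.70 and Mmp9 at 2.47 ± 2.35. Each gene's range in the control libraries overlapped that of its neighbours in this order, so no neighbouring pair differed beyond its spread. Within single libraries the order shifted with the replicate number more than with the hairpin. Timp2 was among the top 3 of the 10 in all 12 libraries and Mmp9 was 9th or 10th in all 12. Mmp2 was first in all 3 libraries numbered 4, and Mmp15 was first, first and second in those numbered 3. The summed level per kb of the 7 metalloproteinases divided by that of the 3 TIMPs was 0.901 to 1.98 in control, 0.705 to 1.87 with hairpin 1 and 0.761 to 1.54 with hairpin 2, and these ranges overlap.

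**Figure D2:**
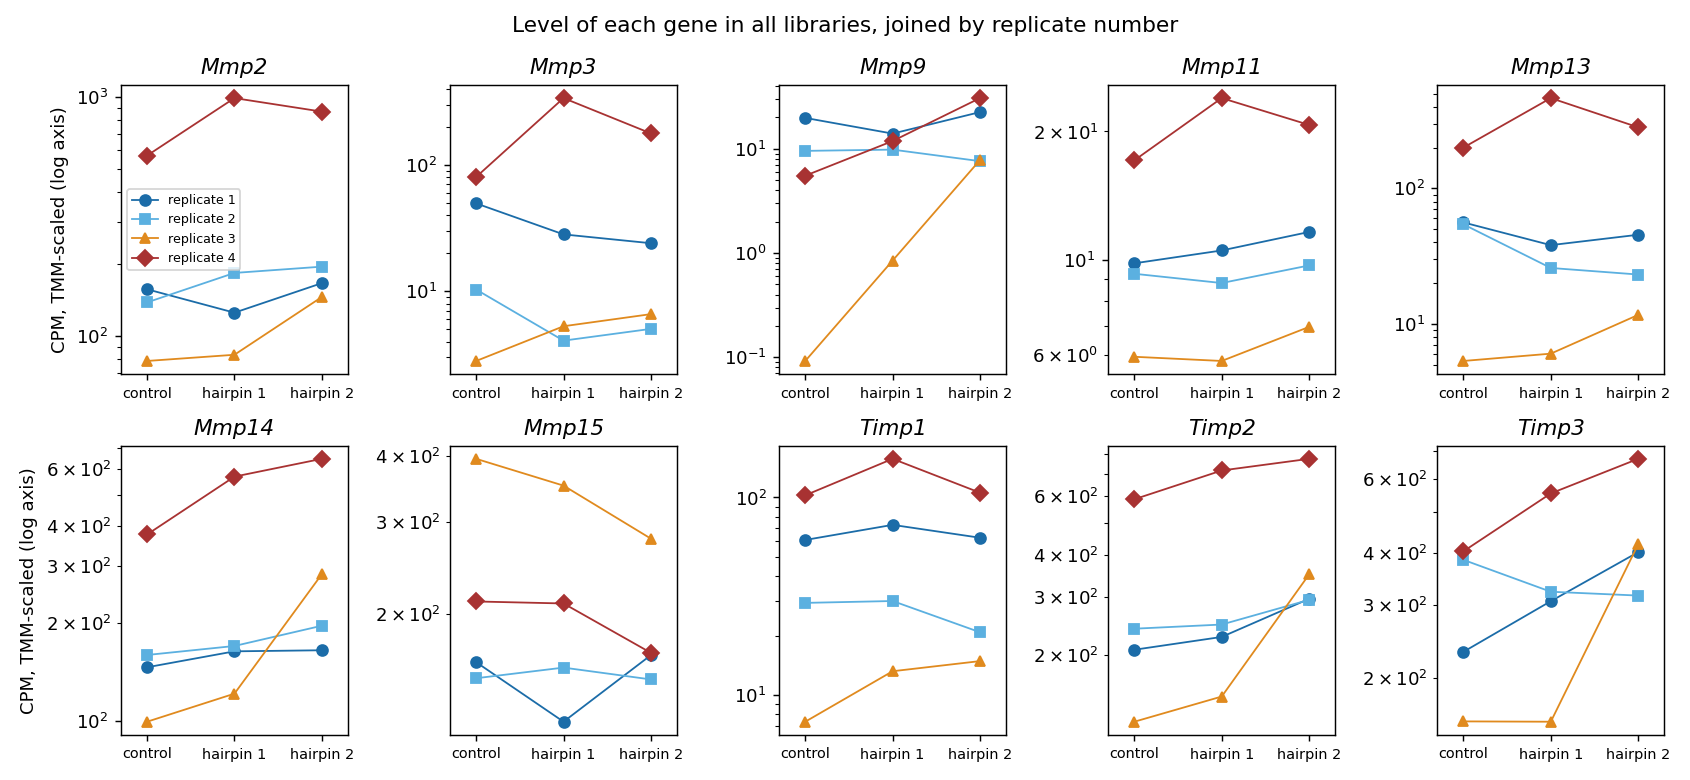
Level of each metalloproteinase and TIMP in TMM-scaled CPM on a log axis, with a point for each of the 12 libraries, by group and replicate number. For Mmp2, Mmp13 and Timp1 the libraries numbered 3 lie at the bottom and those numbered 4 at the top of every group, while Mmp15 is highest in replicate 3.

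The membrane-type enzyme Mmp14, a collagenase of the cell surface, was higher than its same-numbered control in every library with a hairpin. It stood at 146, 160, 99.1 and 377 CPM in control replicates 1 to 4, at 164, 170.1, 121 and 569 with hairpin 1 and at 165, 197, 284 and 646 with hairpin 2. The group ranges overlapped because replicate 4 was high and replicate 3 low in control and with hairpin 1. All 8 differences within replicate numbers were positive, which also held for 3.72% of all genes, and each control served in 2 of the 8. The log2 difference was 0.50 over both hairpins (SE 0.17, edgeR adjusted p = 0.172), 0.28 with hairpin 1 (SE 0.20, edgeR adjusted p = 0.608) and 0.71 with hairpin 2 (SE 0.20, edgeR adjusted p = 0.0658), none past the threshold. The largest difference, 1.52, came from replicate 3 of hairpin 2. Without that library the estimate was smaller and passed, at 0.35 over both hairpins (edgeR adjusted p = 0.0476) and 0.42 with hairpin 2 (edgeR adjusted p = 0.0437). The call with hairpin 2 was also made by DESeq2 (adjusted p = 0.00297) and by edgeR with no filter on low counts (adjusted p = 0.0349).

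Timp2, the inhibitor that also bridges Mmp14 to the Mmp2 proenzyme, followed the same order in every replicate number: lowest in control, higher with hairpin 1, highest with hairpin 2. Control replicates 1 to 4 were at 208, 240.3, 127 and 587 CPM, those with hairpin 1 at 227, 247, 151 and 716, and those with hairpin 2 at 295, 293, 349 and 776. The differences with hairpin 1 were between 0.04 and 0.29 on the log2 scale and those with hairpin 2 between 0.29 and 1.46. Timp2 rose by 0.68 with hairpin 2 (SE 0.17, edgeR adjusted p = 0.0488), just inside the threshold. The difference was 0.17 with hairpin 1 (SE 0.17, edgeR adjusted p = 0.741) and 0.43 over both (SE 0.15, edgeR adjusted p = 0.179). The call with hairpin 2 held in 3 of 12 fits that each left out 1 library, and was lost in the other 9 (edgeR adjusted p = 0.00885 to 0.164). It held without control replicate 2 and without hairpin 2 replicate 2 or 3, and without the last of these the log2 difference was 0.41 (edgeR adjusted p = 0.00885). It was lost with the replicate number out of the model (0.56, edgeR adjusted p = 1.00), and with the third group out of the model (0.66, edgeR adjusted p = 0.171). It was also lost in replicates 1 and 2 alone (0.39, edgeR adjusted p = 0.105) and in replicates 3 and 4 alone (0.99, edgeR adjusted p = 0.144).

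**Figure D3:**
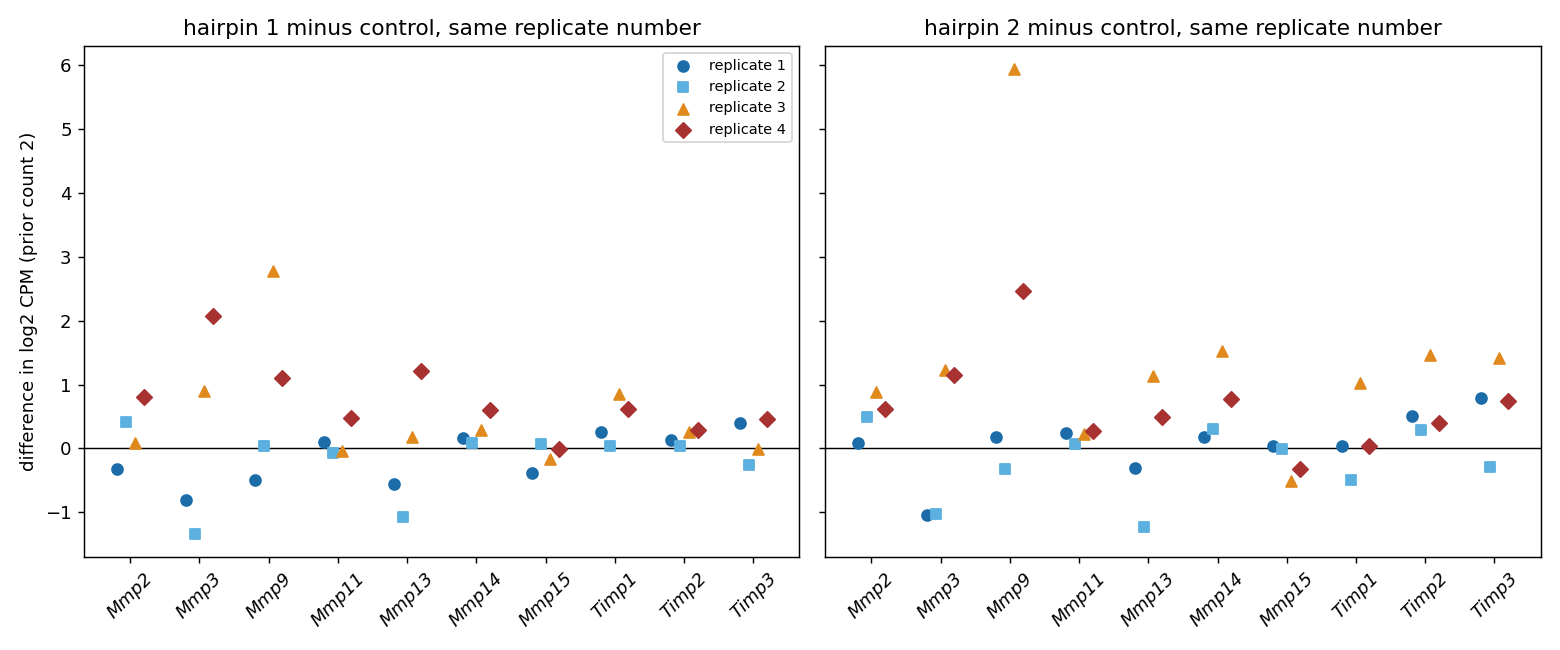
Difference in log2 CPM (prior count 2) between each library with a hairpin and the control of the same replicate number, for each metalloproteinase and TIMP; the left panel shows hairpin 1 and the right panel hairpin 2. Mmp14 and Timp2 lie above 0 in all 8 differences, Mmp3 and Mmp13 lie below 0 in replicates 1 and 2 and above 0 in replicates 3 and 4, and Mmp9 reaches 5.93 in replicate 3 of hairpin 2.

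Mmp2, the gelatinase that Mmp14 activates, stood at 157, 138, 78.5 and 568 CPM in control, at 125, 183, 83.4 and 989 with hairpin 1 and at 166, 195, 145 and 868 with hairpin 2. Replicate 4 was the highest library of every group, and 7 of 8 differences within replicate numbers were positive, replicate 1 of hairpin 1 being the exception. The log2 difference was 0.38 over both hairpins (SE 0.15, edgeR adjusted p = 0.214) and 0.52 with hairpin 2 (SE 0.17, edgeR adjusted p = 0.105), and was 0.25 with hairpin 1 (SE 0.17, edgeR adjusted p = 0.591). DESeq2 called it with hairpin 2 (adjusted p = 0.0208).

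Mmp9, the other gelatinase, is known from neutrophils and macrophages as well as tumour cells, and was the gene whose control libraries lay furthest apart. It stood at 19.8, 9.56, 0.0921 and 5.52 CPM in control, at 14.0, 9.83, 0.847 and 11.9 with hairpin 1 and at 22.5, 7.62, 7.81 and 30.7 with hairpin 2. Replicate 3 held 6 counts in control, 57 with hairpin 1 and 612 with hairpin 2, in libraries of like depth. The groups overlapped, and the log2 difference of 1.68 with hairpin 2 (SE 0.72, edgeR adjusted p = 0.202) did not pass. It was 0.28 with hairpin 1 (SE 0.67, edgeR adjusted p = 0.908) and 0.98 over both (SE 0.62, edgeR adjusted p = 0.458). In replicates 1 and 2 alone the difference was -0.05 with hairpin 2 and -0.21 with hairpin 1, so the positive estimates came from replicates 3 and 4. Neutrophil markers summed to 13.7 to 57.9 CPM in the libraries numbered 1 and 2 and to 2.85 to 6.39 CPM in those numbered 3 and 4. The highest Mmp9 library, replicate 4 of hairpin 2, had a neutrophil sum of 3.92 CPM, of which S100a8 alone was 3.79 CPM. The median of the 8 neutrophil markers in that library was 0.0134 CPM. The part of neutrophils in the level of Mmp9 was not tested.

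Mmp3 and Mmp13 moved in opposite directions in different replicate numbers. Mmp3, stromelysin 1, cuts many matrix proteins and activates other proenzymes. It stood at 49.5, 10.3, 2.81 and 80.2 CPM in control, at 28.2, 4.07, 5.29 and 337 with hairpin 1 and at 24.0, 5.04, 6.59 and 177 with hairpin 2. With either hairpin it was lower than control in replicates 1 and 2, by 0.81 to 1.33 on the log2 scale, and higher in replicates 3 and 4, by 0.90 to 2.07. The difference over all 4 numbers was 0.06 over both hairpins (SE 0.43, edgeR adjusted p = 0.962), 0.20 with hairpin 1 (SE 0.49, edgeR adjusted p = 0.913) and -0.07 with hairpin 2 (SE 0.49, edgeR adjusted p = 0.950). In replicates 1 and 2 alone, Mmp3 fell by 1.04 over both hairpins (SE 0.13, edgeR adjusted p = 0.0490) and by 1.05 with hairpin 2 (edgeR adjusted p = 0.0465). Both values lay just inside the threshold, in fits with 2 libraries per group. Of all genes, 25 were called there over both hairpins and 82 with hairpin 2. With hairpin 1 the difference of Mmp3 there was -1.03 and did not pass. In replicates 3 and 4 alone the difference with hairpin 2 was 1.23 (edgeR adjusted p = 0.107). The difference between these pairs of replicate numbers was not tested.

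Mmp13, the main collagenase of the mouse, showed the same division. It stood at 56.1, 54.3, 5.31 and 200.4 CPM in control, at 38.1, 25.8, 6.02 and 465 with hairpin 1 and at 45.5, 23.1, 11.6 and 283 with hairpin 2. All 4 differences in replicates 1 and 2 were negative (-0.30 to -1.23) and all 4 in replicates 3 and 4 were positive (0.18 to 1.21). The log2 difference was -0.07 over both hairpins (SE 0.32, edgeR adjusted p = 0.946), -0.09 with hairpin 1 (edgeR adjusted p = 0.959) and -0.05 with hairpin 2 (edgeR adjusted p = 0.957). Mmp13 and Mmp3 also lay furthest apart between replicate numbers, with the highest number 41.2-fold and 36.3-fold above the lowest, against a median of 1.62-fold over all genes tested. The number was highest at 4 and lowest at 3 for both. By the same measure Mmp9 spanned 19.2-fold, Timp1 10.6-fold, Mmp2 8.0-fold, Timp2 3.66-fold, Mmp14 3.44-fold, Mmp11 3.27-fold, Timp3 2.43-fold and Mmp15 2.25-fold.

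Mmp11, stromelysin 3, an enzyme typical of stromal fibroblasts around carcinomas, was low in every library. It stood at 9.82, 9.28, 5.93 and 17.1 CPM in control, at 10.5, 8.83, 5.79 and 24.0 with hairpin 1 and at 11.6, 9.70, 6.96 and 20.7 with hairpin 2. All 4 libraries with hairpin 2 were above their control, as for 12.6% of all genes, and the log2 difference of 0.20 (SE 0.11, edgeR adjusted p = 0.294) did not pass. It was 0.13 with hairpin 1 (SE 0.11, edgeR adjusted p = 0.674). Mmp15, the second membrane-type enzyme of the set, had an estimate below 0 in all 3 comparisons with control, as had only Mmp13 besides. It stood at 162, 151, 395 and 211 CPM in control, at 125, 158, 351 and 209.6 with hairpin 1 and at 167, 150.3, 278 and 169 with hairpin 2. Unlike Mmp14, it was highest in replicate 3 of every group. The log2 difference over both hairpins was -0.15 (SE 0.10, edgeR adjusted p = 0.457), with 2 of 8 differences positive.

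Timp1, a secreted inhibitor of broad range, stood at 60.9, 29.3, 7.32 and 103 CPM in control, at 72.7, 29.9, 13.2 and 157 with hairpin 1 and at 62.5, 20.8, 14.8 and 106 with hairpin 2. It was the only TIMP whose estimate was larger with hairpin 1, at 0.41 (SE 0.18, edgeR adjusted p = 0.375), than with hairpin 2, at 0.14 (SE 0.18, edgeR adjusted p = 0.700), and the difference between them did not pass (-0.27, SE 0.18, edgeR adjusted p = 0.432). All 4 libraries with hairpin 1 were above their control, as for 11.8% of all genes, and so were 3 of 4 with hairpin 2.

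Timp3, the inhibitor that binds to the matrix, stood at 231, 384, 158 and 403 CPM in control, at 306, 322, 157 and 554 with hairpin 1 and at 401, 316, 419 and 671 with hairpin 2. Replicate 2 lay below its control with both hairpins, while the other 3 libraries with hairpin 2 lay above theirs by 0.74 to 1.41 on the log2 scale. The difference was 0.69 with hairpin 2 (SE 0.23, edgeR adjusted p = 0.114) and 0.15 with hairpin 1 (SE 0.23, edgeR adjusted p = 0.850). It passed with hairpin 2 without control replicate 2 (0.91, edgeR adjusted p = 0.0362) or without hairpin 2 replicate 2 (0.93, edgeR adjusted p = 0.0261).

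Compared with each other, the hairpins differed at no member by edgeR, where 3.44% of all genes were called. At an unadjusted p under 0.05, 2 members were higher with hairpin 2 (Timp2 and Timp3), beside 10.7% of all genes, and none was lower. DESeq2 called 1, Timp2 (adjusted p = 0.0347), beside 9.14% of the genes it adjusted. Hairpin 2 was above hairpin 1 in all 4 replicate numbers for Mmp14 and Timp2, as for 15.6% of all genes. The log2 difference was 0.51 for Timp2 (SE 0.17, edgeR adjusted p = 0.14), 0.54 for Timp3 (SE 0.23, edgeR adjusted p = 0.222) and 0.43 for Mmp14 (SE 0.20, edgeR adjusted p = 0.255). It was 1.40 for Mmp9 (SE 0.69, edgeR adjusted p = 0.292). Cldn7 itself differed by -0.23 (SE 0.08, edgeR adjusted p = 0.149).

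Among the other metalloproteinases and Timp4, 12 of 17 passed the filter and none was called over both hairpins by edgeR. At an unadjusted p under 0.05, 1 was higher and 1 lower, where 8.31% of all genes were higher. Mmp1a, Mmp7, Mmp20, Mmp21 and Mmp27 were too low to test. Mmp16, a membrane-type enzyme named here after its values were seen, fell by 1.14 on the log2 scale with hairpin 2 (SE 0.28, edgeR adjusted p = 0.0405). It stood at 7.80, 5.45, 22.6 and 7.04 CPM in control and at 4.33, 3.75, 4.15 and 4.01 with hairpin 2. With hairpin 1 it stood at 5.05, 4.76, 15.1 and 6.43 CPM, and the log2 difference was -0.40 (SE 0.27, edgeR adjusted p = 0.591). The widest gap between control and hairpin 2 was in replicate 3. Of the 12 genes tested, only Mmp16 was called with hairpin 2, where 5.76% of all genes were called. The call with hairpin 2 was lost with the replicate number out of the model (edgeR adjusted p = 1.00).

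Of 15 genes for the activation, docking and clearance of metalloproteinases, 14 were tested. Over both hairpins 1 rose and 1 fell, where 1.79% of all genes were called. Lrp1, the endocytic receptor that clears several metalloproteinases and TIMPs, rose by 0.61 (SE 0.11, edgeR adjusted p = 0.0281). Its levels were 127, 107, 56.4 and 532 CPM in control, 138, 149.9, 72.6 and 794 with hairpin 1 and 212, 143, 128 and 1014 with hairpin 2. All 8 libraries with a hairpin were above the control of the same number, as for 3.72% of all genes. Itgb3, the beta chain of the alpha-v beta-3 integrin that can hold Mmp2 on the cell surface, fell by 0.55 (SE 0.07, edgeR adjusted p = 0.0101). Its levels were 488, 418, 486 and 629 CPM in control, 416, 357, 446 and 443 with hairpin 1 and 321, 231, 313 and 281 with hairpin 2. With hairpin 1 alone none of the 14 was called, where 0.728% of all genes were called. Lrp1 was at 0.39 there (SE 0.13, edgeR adjusted p = 0.223) and Itgb3 at -0.28 (SE 0.09, edgeR adjusted p = 0.199).

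Of 15 matrix substrates, 2 rose and none fell over both hairpins, where 1.79% of all genes were called. Col4a2, a chain of basement membrane collagen, rose by 0.68 (SE 0.08, edgeR adjusted p = 0.00528) and Bgn, the proteoglycan biglycan, rose by 0.72 (SE 0.13, edgeR adjusted p = 0.0262). Col4a2 stood at 118, 137, 98.3 and 345 CPM in control, at 155, 209, 152 and 602 with hairpin 1 and at 176, 224, 200.2 and 542 with hairpin 2. Bgn stood at 269, 125, 90.5 and 855 CPM in control. It stood at 264, 196, 139.8 and 1367 CPM with hairpin 1 and at 377, 242, 259.7 and 1631 CPM with hairpin 2. With hairpin 1 alone Col4a2 passed (0.61, SE 0.09, edgeR adjusted p = 0.0188) and Bgn did not (0.47, SE 0.15, edgeR adjusted p = 0.196). With hairpin 2 alone 4 of the 15 rose, where 5.76% of all genes were called. None of 16 ADAM and ADAMTS genes and none of 17 transcription regulators of metalloproteinases, among them the AP-1 genes Fos and Jun, was called over both hairpins by edgeR. At an unadjusted p under 0.05 the counts were 7 higher and 2 lower in the first list and 3 higher and 1 lower in the second. Of all genes, 8.31% were higher at that threshold, and the share that was lower was not counted. The median log2 difference over both hairpins was 0.21 for the other metalloproteinases and Timp4, -0.01 for activation, docking and clearance, 0.38 for ADAM and ADAMTS genes, 0.07 for the regulators and 0.36 for the substrates, beside 0.33 for the 10 members. With the replicate number out of the model, Lrp1, Itgb3, Col4a2 and Bgn did not pass (edgeR adjusted p = 0.912 to 1.00).

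Markers of cell types known to make these enzymes were read beside them. Of all genes, edgeR called 1.79% over both hairpins and 5.76% with hairpin 2. At an unadjusted p under 0.05, 8.31% of all genes were higher over both hairpins. The 12 fibroblast markers summed to 2267, 2819, 869 and 6749 CPM in control, to 2253, 3256, 1018 and 8543 with hairpin 1 and to 3392, 3131, 2686 and 14772 with hairpin 2. The median of the 12 was 31.9, 26.4, 15.3 and 77.5 CPM in control. It was 35.9, 27.7, 18.9 and 102 CPM with hairpin 1 and 32.4, 33.2, 24.4 and 132 CPM with hairpin 2. A large part of the sum was Postn, with means of 1308, 1636 and 2663 CPM in control, with hairpin 1 and with hairpin 2. The sum was above control with hairpin 2 in all 4 replicate numbers, 3 of the 12 rose with hairpin 2, and none was called over both hairpins (6 at an unadjusted p under 0.05, edgeR). It was lowest in replicate 3 and highest in replicate 4 of every group, as were, in control and with hairpin 1, Mmp2, Mmp11, Mmp13, Mmp14, Timp1, Timp2 and Timp3. Of the 10 pericyte and smooth muscle markers, 4 rose over both hairpins (Cnn1, Tagln, Myh11 and Pdgfrb) and 6 with hairpin 2. The sum of the 10 was 355 to 618 CPM in control and 491 to 1044 CPM with hairpin 2. Several of the 10, such as Acta2 and Myh11, are also genes of myoepithelial cells. Acta2 was not called over both hairpins (edgeR adjusted p = 0.0653). Of the 10 basal and myoepithelial markers, 2 rose over both hairpins (Cdh3 and Jag2) and 4 with hairpin 2, and none fell. Their sum was 1415 to 4302 CPM in control, 1738 to 3861 with hairpin 1 and 2498 to 3700 CPM with hairpin 2. The part of these cells in the levels of Timp2, Mmp14 and Mmp2 was not tested. Macrophage markers summed to 148.6 to 377 CPM over the 12 libraries, but most of the sum was Cd14, with means of 213, 169 and 231 CPM in control, with hairpin 1 and with hairpin 2. The median of the 12 macrophage markers was 0.0149 to 3.08 CPM, and up to 5 of them were at 0 in a library. Endothelial markers summed to 2.24 to 9.88 CPM. Of the 10 luminal and epithelial markers, none rose over both hairpins or with hairpin 2, and 1 fell in each of these comparisons. The marker that fell over both hairpins was Epcam (log2 difference -0.25, SE 0.05, edgeR adjusted p = 0.0485). Ptprc, the pan-leukocyte antigen CD45, named here after its values were seen, was at 2.18 to 9.21 CPM in the libraries numbered 1 and 2 and at 0 to 0.179 CPM in those numbered 3 and 4.

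**Figure D4:**
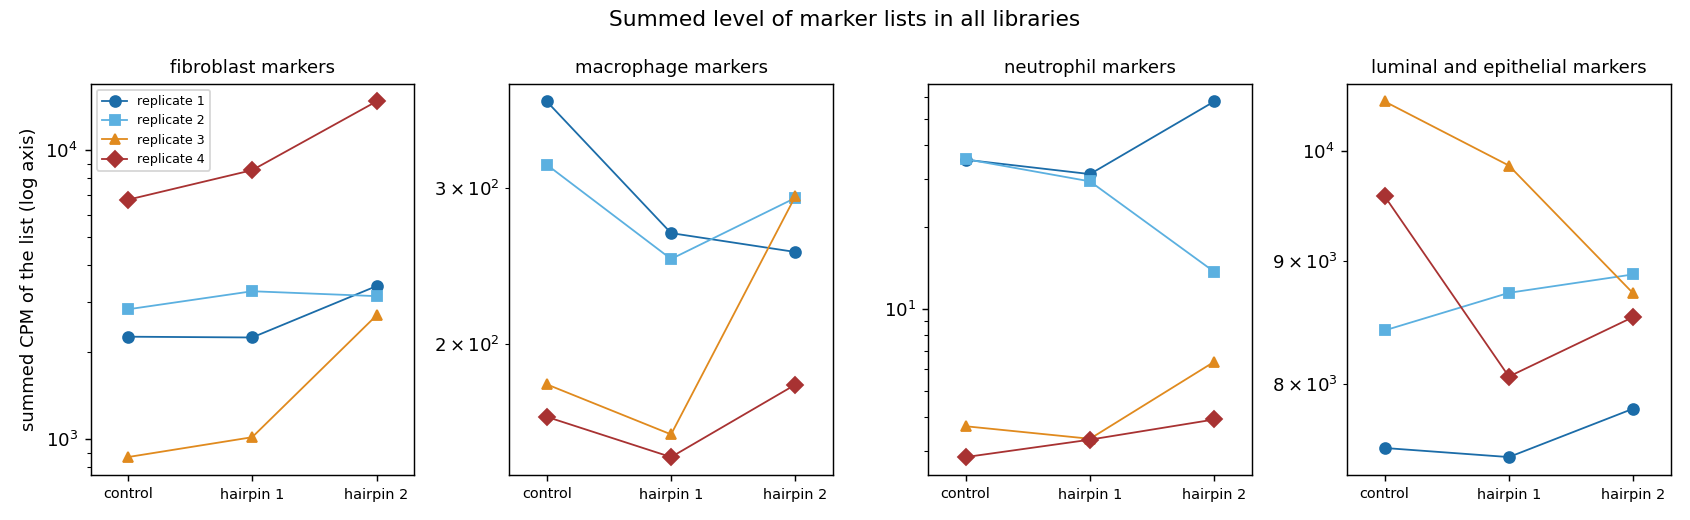
Summed CPM of marker lists in each of the 12 libraries on a log axis for each list, with a line joining the libraries of 1 replicate number across the groups. Fibroblast markers run from 869 CPM in control replicate 3 to 14772 CPM in replicate 4 of hairpin 2, and neutrophil markers are lower in every library numbered 3 or 4 (2.85 to 6.39 CPM) than in every library numbered 1 or 2 (13.7 to 57.9 CPM).

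The genes with the pattern most like each member were taken by Pearson's r of log2 CPM over the 12 libraries, after the mean of each replicate number was subtracted, among 14129 genes whose mean level was 1 CPM or more. The 12 points share 4 replicate numbers and 3 groups, and r is a description. For Mmp14 these were Flt1 (r = 0.986), Pcdhgb2 and Epb41l3, and for Timp2 they were Olfml3 (r = 0.983), Angptl4 and Plppr3. Timp3 was most like Kcns1 (r = 0.993), Adamtsl4 and Etfbkmt. Without replicate 3 of hairpin 2, r was 0.953 for Flt1 with Mmp14, 0.944 for Olfml3 with Timp2 and 0.980 for Kcns1 with Timp3. Mmp2 was most like Agmo (r = 0.980), Abcc3 and Rnase1, and Mmp9 most like Serpina3i (r = 0.988), Pcdhga9 and Lsp1. Mmp3 was most like Apbb1ip (r = 0.957), Mpp1 and Akap7, Mmp13 most like Nrcam (r = 0.945), Prl2c2 and Nt5e, and Mmp11 most like Vmp1 (r = 0.928), Krt15 and Gm13710. For Mmp15 they were Pik3c2g (r = 0.971), Klf6 and Sh3bp4, and for Timp1 they were Krt80 (r = 0.969), Slc16a10 and Akirin2.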

How the data were processed

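RNA was measured in 12 libraries, 3 groups of 4, each mapped to its group and number by its title. The values the authors deposited are raw read counts per gene, not normalized, with a Gene number and symbol. Per the submitters' processing notes, the genome build was mm10 and the tools included Trimmomatic 0.39, FastQC 0.74 and DESeq2 1.34.0, with no roles stated. Aligner, annotation and strand setting: not given in the sources used here. Per the labels' protocols, oligo-dT selected RNA was made into libraries with a NEBNext Ultra RNA kit.

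Genes were filtered with filterByExpr by group (17025 kept, 8836 left out), scaled by TMM, and tested with edgeR 4.0.16 in R 4.3.3, with the quasi-likelihood test on group and replicate number. Benjamini-Hochberg adjustment ran over the 17025 genes, and an adjusted p under 0.05 was called. The procedure was run on simulated data in which some genes changed alike with both hairpins. Only the contrast of both hairpins was read there, so the contrasts of a single hairpin were not covered. The 4 contrasts were both hairpins, hairpin 1 and hairpin 2 against control, and hairpin 2 against hairpin 1. The replicate numbers in the titles pair the libraries: deviations from group means correlated at 0.855 to 0.916 for the same number (12 pairs) and at -0.807 to 0.727 for other numbers (36 pairs). The labels name no shared animal or day. The common biological coefficient of variation was 0.141 with the number in the model and 0.648 without. Alternatives were DESeq2 1.42.0, its size factors, no filter, no replicate number, fewer groups or numbers, and leaving out each library.

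Named genes were the 10 members, Cldn7, every gene of a list past the threshold over both hairpins (at most 4 a list) and the 3 genes most like each member; marker lists are given as sums and counts. Mmp12, Mmp16, Mmp24, Cd14, Ptprc, Erbb2, S100a8 and Postn fall outside this rule and were chosen after their values were seen. Acta2, Fos and Jun also fall outside it and are named as examples of their lists. The members, lists and rules were chosen with earlier results of these data known. Protein sequences were not used here. Intervals and levels cover the spread between libraries only, since reads without molecular identifiers are not independent molecules.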

Additional observations from a re-analysis of the deposited data

Results flagged for a closer look

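In 30 groups of 4 libraries (10 genes, 3 groups, log2 CPM), 2 libraries stood apart from the other 3 of their group, by a gap over the group's range above Dixon's critical value at the 95% level. Chance alone would single out about 1 in 20 groups. Mmp2 in replicate 4 of hairpin 2 was at 868 CPM, with 195 CPM as the next highest (gap over range 0.836). Mmp9 in replicate 3 of hairpin 1 was at 0.847 CPM, with 9.83 CPM as the next lowest (gap over range 0.872). Replicate 4 was also the highest Mmp2 library and replicate 3 the lowest Mmp9 library of the control group.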

How the results depend on the processing

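Of 750 estimates for single members under the alternatives, 62 changed direction, and these were counted whatever became of their call. Of those that kept their direction, 663 kept their side of the threshold, 13 lost a call and 12 gained one. Genes called over both hairpins, with hairpin 1, with hairpin 2 and between hairpins numbered 304, 124, 981 and 585. With no replicate block they numbered 1, 1, 1 and 1, with 0 members called in each, the gene being Cldn7 in the first 3. DESeq2 with the replicate number called 1150, 596, 1850 and 1404 genes, and 2, 0, 3 and 1 members. Replicates 1 and 2 alone gave 25, 9, 82 and 84 genes, with 1 member, Mmp3, over both hairpins and with hairpin 2, and replicates 3 and 4 alone gave 5, 1, 327 and 42, with 0 members with hairpin 2. With only the groups compared, 390 genes were called with hairpin 1 and 97 with hairpin 2, the latter with 0 members. With no filter on low counts 2 members were called with hairpin 2. Leaving out each library in turn gave 39 to 554, 2 to 344, 342 to 1076 and 165 to 672 genes, and 0 to 2 members over both hairpins, 0 to 2 with hairpin 2 and 0 in the other comparisons.

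These estimates changed direction, all on the log2 scale, and the cause was not tested. With no replicate block, Mmp13 was at 0.48 over both hairpins, 0.76 with hairpin 1, 0.20 with hairpin 2 and -0.56 between hairpins; Mmp3 was at 0.58 with hairpin 2; and Mmp2 and Mmp11 were at -0.0067 and -0.0027 between hairpins. DESeq2 gave Mmp3 -0.017 over both hairpins. With only the groups compared, Mmp3 was at 0.084 and Mmp13 at 0.0079 with hairpin 2. In replicates 1 and 2, Mmp3 was at -1.04 over both hairpins and -1.03 with hairpin 1. Mmp9 was at -0.13 over both hairpins, -0.21 with hairpin 1 and -0.046 with hairpin 2 there, and Timp1 at -0.037 over both hairpins and -0.22 with hairpin 2. Mmp15 was at 0.015 with hairpin 2 and 0.16 between hairpins. In replicates 3 and 4, Mmp13 was at 0.85 over both hairpins, 0.83 with hairpin 1 and 0.87 with hairpin 2, and Mmp3 was at 1.23 with hairpin 2.

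Leaving out 1 library turned these: over both hairpins Mmp13 (-0.39 to 0.36) and Mmp3 (-0.47 to 0.55); with hairpin 1 Mmp13 (-0.50 to 0.35), Mmp3 (-0.37 to 0.69), Mmp9 (-0.11 to 0.82) and Mmp15 (-0.18 to 0.0024). With hairpin 2 it turned Mmp13 (-0.37 to 0.37), Mmp3 (-0.56 to 0.41) and Timp1 (-0.068 to 0.30), and between hairpins Mmp13 (-0.31 to 0.50), Mmp3 (-0.58 to 0.36) and Mmp15 (-0.20 to 0.017). The smallest count of a member was 6, for Mmp9 in control replicate 3, one of the deeper libraries.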

Other observations

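Mmp24, a membrane-type enzyme outside the 10 genes and chosen after its values were seen, divided the libraries by replicate number and not by hairpin. It stood at 15.6 and 12.8 CPM in control replicates 1 and 2, at 14.3 and 13.6 with hairpin 1 and at 15.0 and 13.9 with hairpin 2. In replicates 3 and 4 it held 0 and 3 counts in control, 8 and 0 with hairpin 1 and 0 and 5 with hairpin 2, in libraries with more total counts. Mmp12, the macrophage metalloelastase, also chosen after its values were seen, was lowest in replicate 3 of every group, at 1.04, 2.63 and 1.39 CPM in control, with hairpin 1 and with hairpin 2. Replicates 1, 2 and 4 were at 7.31, 19.6 and 5.08 CPM in control. They were at 9.75, 7.91 and 18.2 CPM with hairpin 1 and at 4.98, 10.6 and 10.2 CPM with hairpin 2. The labels name no batch for the replicate numbers.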
